A study of Homo sapiens with 4 samples.

Results

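The BCL2 family decides whether a cell opens its mitochondrial outer membrane and dies by apoptosis. Its guardians (BCL2, BCL2L1, which encodes BCL-XL, and MCL1) hold the membrane closed, its effectors (BAX and BAK1) form the pores, and its BH3-only members (BIK, BBC3, PMAIP1, BCL2L11 and BID) either block the guardians or activate the effectors. BIK encodes a BH3-only protein of the endoplasmic reticulum membrane, BBC3 encodes PUMA, PMAIP1 encodes NOXA, BCL2L11 encodes BIM, and BID links death receptors to mitochondria after caspase 8 cleaves it. The 10 genes were selected by symbol from the 17791 in the table, with earlier results of the same libraries known, among them the lower BIK level in PC-3 coculture. That level is therefore described and supports nothing beyond itself.

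RNA came from engineered prostate cancer tissues, cells grown in a hydrogel of poly(ethylene glycol) and fibrinogen, at day 15, and each of 4 groups had 1 library. The groups were LNCaP coculture, LNCaP monoculture, PC-3 coculture and PC-3 monoculture; no drug or other treatment was applied to any. LNCaP is a prostate cancer line labelled androgen-dependent, PC-3 a prostate cancer line labelled castration-resistant, and BJ-5ta, present in both cocultures at seeding as 1 cell to 5 cancer cells, a line of normal human fibroblasts immortalised with telomerase. Each type of prostate cancer was thus modelled by a single established line. The labels give RNA from more than 2 tissues per group without saying how it was combined, the growth protocol describes PC-3 tissues alone, and a library of fibroblasts alone was not analysed here.

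Without replicates no difference was tested. Folds are ratios of scaled counts with exact 95% counting intervals, which cover counting error and not the spread between tissues. Total counts lay between 15520243 and 15865690. The 14 fibroblast markers summed to 948 CPM (counts per 1000000 counts) in LNCaP coculture, against 1.96 CPM in LNCaP monoculture, and to 767 CPM in PC-3 coculture, against 300 CPM in PC-3 monoculture. In PC-3 monoculture SPARC was at 206 CPM, FBN1 at 42.5, COL6A3 at 37.3 and PDGFRA at 11.7, and every other marker was below 1 CPM. SPARC was at 221 CPM in PC-3 coculture. None of the 14 was at 0 in PC-3 coculture and 1 was in LNCaP coculture, against 4 in PC-3 monoculture and 7 in LNCaP monoculture. KLK3, which encodes prostate-specific antigen, had 74134 counts in LNCaP coculture and 60226 in LNCaP monoculture and 0 in both PC-3 libraries. In such bulk RNA, fewer cells of a type and less RNA per cell cannot be told apart, and no member's reads could be assigned to cancer cells or fibroblasts.

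The BH3 motif is the stretch by which these proteins bind one another, and its coding sequences are shown for 6 members because the results turn on BIK, on the BH3-only members that differed most between the lines, and on the guardians and effector that differed with them. Each is 45 bases of a GENCODE v29 transcript on GRCh38, 5′ to 3′ on the coding strand. Capitals mark the 18 bases that encode the core: leucine, 3 residues of any kind, glycine or alanine, and aspartate. All 10 members held exactly 1 such core.
BIK: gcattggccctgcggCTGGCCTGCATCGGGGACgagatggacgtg
BBC3: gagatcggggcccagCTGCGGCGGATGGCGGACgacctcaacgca
PMAIP1: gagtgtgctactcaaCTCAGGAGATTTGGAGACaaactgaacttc
BCL2: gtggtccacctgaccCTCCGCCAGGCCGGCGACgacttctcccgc
BCL2L1: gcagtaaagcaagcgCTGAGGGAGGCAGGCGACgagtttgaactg
BAK1: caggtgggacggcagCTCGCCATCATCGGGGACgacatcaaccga
They lie within coding exons at chr22:43127701-43127745 on the plus strand (BIK), chr19:47226579-47226623 on the minus strand (BBC3), chr18:59902658-59902702 on the plus strand (PMAIP1), chr18:63318349-63318393 on the minus strand (BCL2), chr20:31721922-31721966 on the minus strand (BCL2L1) and chr6:33575387-33575431 on the minus strand (BAK1). Of the 18 core bases, BAK1 shared 15 with BIK, BBC3 shared 11, PMAIP1 and BCL2 shared 9 each and BCL2L1 shared 8.

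Of the members' promoters, RefSeq windows of 300 bases around the gene start (GRCh38.p14) were matched by symbol for 8 of 10, all but BIK and MCL1. The windows of PMAIP1 and BBC3 are shown because these genes separated the lines most, in opposite directions. PMAIP1 lies at chr18:59899746-59900045 on the plus strand and BBC3 at chr19:47232618-47232917 on the minus strand. Capitals mark matches, on either strand, to the motifs searched.
PMAIP1: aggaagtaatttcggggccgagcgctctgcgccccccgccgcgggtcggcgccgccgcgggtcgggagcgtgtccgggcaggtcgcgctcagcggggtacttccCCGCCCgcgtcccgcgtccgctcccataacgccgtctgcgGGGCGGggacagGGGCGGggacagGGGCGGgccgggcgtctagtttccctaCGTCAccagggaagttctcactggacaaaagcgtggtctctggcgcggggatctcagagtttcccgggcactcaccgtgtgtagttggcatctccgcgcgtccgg
BBC3: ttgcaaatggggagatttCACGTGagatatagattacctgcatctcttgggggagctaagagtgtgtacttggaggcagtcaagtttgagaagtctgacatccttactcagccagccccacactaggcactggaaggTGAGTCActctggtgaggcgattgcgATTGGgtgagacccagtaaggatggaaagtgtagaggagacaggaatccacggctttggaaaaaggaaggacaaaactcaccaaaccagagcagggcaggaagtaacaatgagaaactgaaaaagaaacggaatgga
The PMAIP1 window, 71.3% G and C, held 4 GC boxes (GGGCGG, present in 45.0% of all 35116 windows of this length) and 1 cyclic AMP response half-site (TGACG, 24.6%). The BBC3 window, 48.0% G and C, held 1 E-box (CACGTG, 7.26% of windows), 1 AP-1 motif (TGANTCA, 7.71%) and 1 CCAAT box (CCAAT, 34.6%). The STAT motif (TTCNNNGAA, 7.66% of windows) and the TATA motif (TATAAA, 11.5%) had no match in these 2 windows. These are letter matches in the windows shown, and no overlap between different motifs occurred there.

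Among the guardians, MCL1 and BCL2L1 were abundant in all libraries and BCL2 was scarce. BCL2 (gene ID 596, chr18:63123346-63320090, minus strand) had 157 counts in LNCaP coculture, 167 in LNCaP monoculture, 54 in PC-3 coculture and 67 in PC-3 monoculture. BCL2L1 (gene ID 598, chr20:31664452-31723963, minus strand) had 1974 counts in LNCaP coculture, 1951 in LNCaP monoculture, 4944 in PC-3 coculture and 5305 in PC-3 monoculture. MCL1 (gene ID 4170, chr1:150574558-150579610, minus strand), a short-lived guardian, had 5154 counts in LNCaP coculture, 4627 in LNCaP monoculture, 6204 in PC-3 coculture and 6306 in PC-3 monoculture. BCL2 was thus higher in the LNCaP libraries than in the PC-3 ones, BCL2L1 the reverse, and MCL1 spanned no more than 1.35-fold. Reads of BCL2L1 may include its antisense neighbour ABALON, which overlaps it by 1424 exon bases and was listed with 42 to 369 counts, since the library kit does not mark strand.

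The effectors were both higher in PC-3 tissues. BAX (gene ID 581, chr19:48954875-48961798, plus strand) had 349 counts in LNCaP coculture, 442 in LNCaP monoculture, 561 in PC-3 coculture and 557 in PC-3 monoculture. BAK1 (gene ID 578, chr6:33572552-33580276, minus strand) had 338 counts in LNCaP coculture, 365 in LNCaP monoculture, 921 in PC-3 coculture and 986 in PC-3 monoculture. The lines stood further apart in BAK1 than in BAX. The annotation also holds the processed pseudogenes BAK1P1 and BAK1P2, so part of the BAK1 reads is uncertain.

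Among the BH3-only members, BBC3 was higher in the LNCaP libraries and PMAIP1 in the PC-3 libraries. BIK (gene ID 638, chr22:43110750-43129712, plus strand) had 106 counts in LNCaP coculture, 209 in LNCaP monoculture, 56 in PC-3 coculture and 120 in PC-3 monoculture. BBC3 (gene ID 27113, chr19:47220824-47232860, minus strand) had 337 counts in LNCaP coculture, 449 in LNCaP monoculture, 88 in PC-3 coculture and 92 in PC-3 monoculture. PMAIP1 (gene ID 5366, chr18:59899996-59904305, plus strand) had 228 counts in LNCaP coculture, 222 in LNCaP monoculture, 871 in PC-3 coculture and 1155 in PC-3 monoculture. BIK was lower in each coculture than in its monoculture, and higher in LNCaP than in PC-3. BBC3 and PMAIP1 differed more between the lines than BIK did. BCL2L11 (gene ID 10018, chr2:111120914-111168445, plus strand) had 863 counts in LNCaP coculture, 860 in LNCaP monoculture, 614 in PC-3 coculture and 676 in PC-3 monoculture. BID (gene ID 637, chr22:17734138-17774665, minus strand) had 214 counts in LNCaP coculture, 222 in LNCaP monoculture, 317 in PC-3 coculture and 351 in PC-3 monoculture. Both varied little within a line, and BCL2L11 overlaps the opposite-strand RNA gene MIR4435-2HG by 727 exon bases, which was listed with 12 to 305 counts. All 10 members reached 1 CPM in every library.

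**Figure D1:**
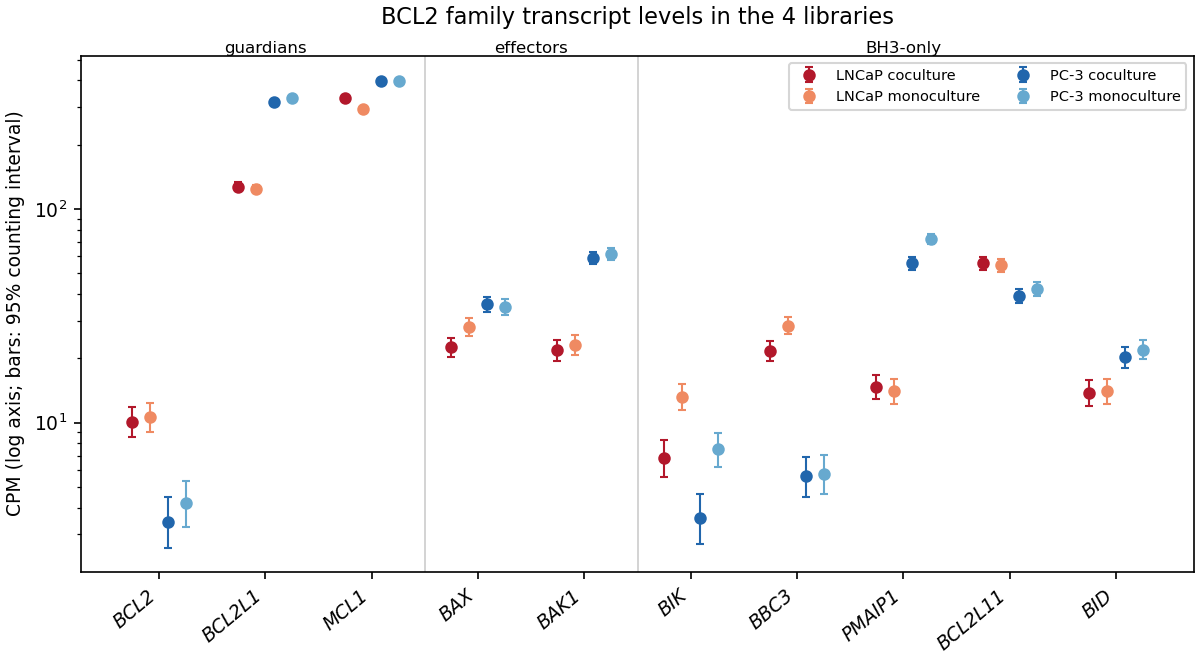
Level of each member in CPM on a log axis, 1 point per library with its 95% counting interval, grouped as guardians, effectors and BH3-only members. MCL1 and BCL2L1 lie highest in all 4 libraries, and BIK lies lower in each coculture than in its monoculture.

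Levels of different genes were compared as CPM per kilobase of the principal annotated transcript. In LNCaP coculture MCL1 had 84.5 CPM per kilobase, BCL2L1 had 49.1 and BIK had 7.17, and in LNCaP monoculture the same genes had 74.5, 47.6 and 13.9. In PC-3 coculture BCL2L1 had 122 CPM per kilobase, MCL1 had 101 and BIK had 3.75, and in PC-3 monoculture they had 128, 100 and 7.89. MCL1 thus led in LNCaP tissues and BCL2L1 in PC-3 tissues, and BCL2 was last in every library, at 0.646 to 1.98 CPM per kilobase. BCL2L11 stood at 25.7 to 36.6 CPM per kilobase for a transcript of 1522 bases, the one length used for it.

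Per family, BH3-only members took 18.0% of the summed CPM in LNCaP coculture and 20.6% in LNCaP monoculture, and 13.3% in PC-3 coculture and 15.3% in PC-3 monoculture. Guardians took 74.9% in LNCaP coculture, 70.9% in LNCaP monoculture, 76.6% in PC-3 coculture and 74.8% in PC-3 monoculture. BIK alone made up 6.06% of BH3-only counts in LNCaP coculture (exact 95% interval 4.99 to 7.29%), against 10.7% in LNCaP monoculture (9.32 to 12.1%). It made up 2.88% in PC-3 coculture (2.18 to 3.72%), against 5.01% in PC-3 monoculture (4.17 to 5.96%). In each line the BIK share was lower in coculture. The share reuses the BIK counts given above, so it adds no support in either line. In PC-3 those counts were also known before the members were chosen.

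With fibroblasts, PC-3 tissues had less BIK, and the other 9 members were within 2-fold of PC-3 monoculture. BIK was at 3.57 CPM in PC-3 coculture (95% interval 2.70 to 4.64), against 7.52 CPM in PC-3 monoculture (6.23 to 8.99), which is 2.10-fold lower (1.52 to 2.94; log2 fold -1.05). It was the 1 member past 2-fold, where 1.01% of the 14417 genes with at least 1 CPM in either library were at least 2-fold lower, 2.22% at least 2-fold higher and 3.23% were past 2-fold in either direction. PMAIP1 was 1.30-fold lower (1.19 to 1.42) and BCL2L1 stood at 0.949 times the monoculture (0.913 to 0.987). These 3 had intervals that left out 1, as did 41.9% of genes tested. The other 7 ranged from 0.821-fold for BCL2 (0.563 to 1.19) to 1.03-fold for BAX (0.911 to 1.16). The median log2 fold of the members was -0.09, beside 0.00 over all genes.

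LNCaP tissues with fibroblasts also had less BIK, just short of 2-fold. BIK was at 6.83 CPM in LNCaP coculture (5.59 to 8.27), against 13.2 CPM in LNCaP monoculture (11.5 to 15.2), which is 1.94-fold lower (1.53 to 2.47; log2 fold -0.94). None of the members passed 2-fold, where of 14119 genes 4.56% lay that far above the monoculture and 3.03% that far below it, 7.59% in all. BBC3 stood at 0.764 times the monoculture (0.661 to 0.882), BAX at 0.804 (0.697 to 0.927) and MCL1 at 1.13 (1.09 to 1.18), and with BIK these were the 4 members whose intervals left out 1, as did 53.6% of genes. The other 6 lay between 0.943-fold for BAK1 (0.811 to 1.10) and 1.05-fold for PMAIP1 (0.865 to 1.26). The median log2 fold of the members was -0.04, beside 0.00 over all genes.

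**Figure D2:**
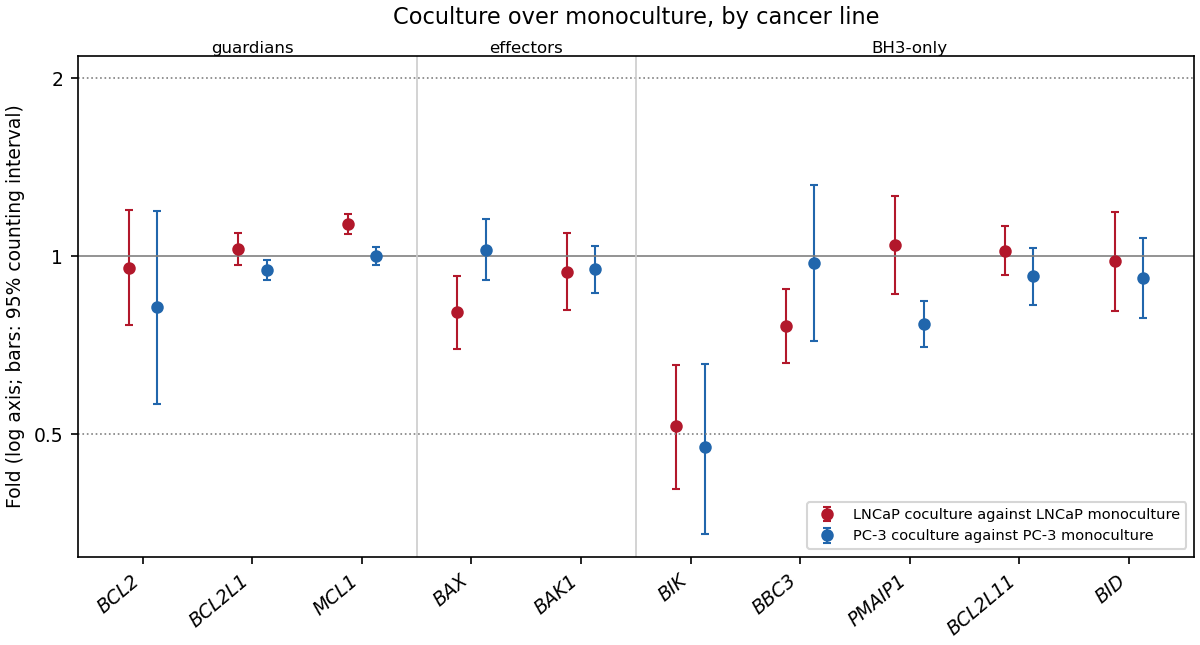
Fold of each member in coculture over monoculture on a log axis, for LNCaP and PC-3, with 95% counting intervals and dotted lines at 2-fold. BIK is the lowest point in both lines, at 0.516-fold in LNCaP and 0.475-fold in PC-3.

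Transcript length moved with these folds. BIK, with a principal transcript of 953 bases, BAX, with 793, and BCL2L11 were among the shortest 20% of genes, whose median log2 fold was -0.15 in PC-3 coculture over monoculture and -0.16 in LNCaP coculture over monoculture, against 0.07 and 0.03 among the longest 20%. After a smooth correction for length and GC content, the log2 fold of BIK was -0.89 in PC-3 and -0.69 in LNCaP, and no member passed 2-fold in PC-3. The same correction turned BAX in LNCaP to 0.06, against -0.31 uncorrected. The part of length in the result was not tested further, nor was that of the fibroblast RNA whose markers are given above.

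The coculture log2 folds of BIK differed by 0.11 between the lines, LNCaP minus PC-3, with a 95% interval of -0.46 to 0.67, which leaves room for a difference in either direction. Of 13005 genes tested in both coculture comparisons, 11, BIK included, were at or below the BIK log2 fold in both, a count made after its values were seen. It used log2 folds without the length and GC correction. For BBC3 the difference was -0.35 (-0.81 to 0.11) and for BCL2L11 0.14 (-0.07 to 0.35). MCL1 differed by 0.18 (0.10 to 0.25), being higher in LNCaP coculture and at 1.00-fold (0.968 to 1.04) in PC-3 coculture. With the length and GC correction its log2 fold in LNCaP coculture over monoculture was 0.08, against 0.18 without it.

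Between LNCaP and PC-3 tissues 5 members were past 2-fold in monoculture and 5 in coculture, beside 45.7% and 44.3% of all genes. Coculture over monoculture had 1 member past 2-fold in PC-3 and 0 in LNCaP, beside 3.23% and 7.59% of all genes. In monoculture, BBC3 was at 28.4 CPM in LNCaP (25.9 to 31.2), against 5.76 CPM in PC-3 (4.65 to 7.07), 4.93-fold higher (3.93 to 6.24). BCL2 was at 10.6 CPM in LNCaP, against 4.20 CPM in PC-3, 2.52-fold higher (1.89 to 3.40). PMAIP1 was at 14.1 CPM in LNCaP (12.3 to 16.0), against 72.4 CPM in PC-3 (68.2 to 76.7), 5.15-fold lower (4.45 to 5.97). BCL2L1 was 2.69-fold lower in LNCaP (2.55 to 2.83) and BAK1 2.67-fold lower (2.37 to 3.02). With 2 members at least 2-fold higher and 3 lower, 5 of 10 were past 2-fold, where 22.1% of 15160 genes were higher and 23.6% lower, 45.7% in all. That share is near the background. BIK was 1.76-fold higher in LNCaP (1.40 to 2.22), BCL2L11 1.29-fold higher (1.16 to 1.42), and BID 1.56-fold lower. All 10 intervals left out 1, as did 86.2% of genes.

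In coculture the same 5 members were past 2-fold in the same directions, where 20.7% of 15155 genes were higher and 23.6% lower, 44.3% in all. BBC3 was 3.87-fold higher in LNCaP coculture than in PC-3 coculture (3.05 to 4.95) and BCL2 2.94-fold higher (2.14 to 4.08). PMAIP1 was 3.78-fold lower (3.26 to 4.39), BAK1 2.70-fold lower (2.38 to 3.06) and BCL2L1 2.48-fold lower (2.35 to 2.61). BIK was 1.91-fold higher (1.37 to 2.69), just inside the limit of 2-fold. All 10 intervals again left out 1, as did 85.1% of genes. The median log2 fold of the members was -0.40 in coculture and -0.37 in monoculture, beside 0.01 and 0.04 over all genes.

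**Figure D3:**
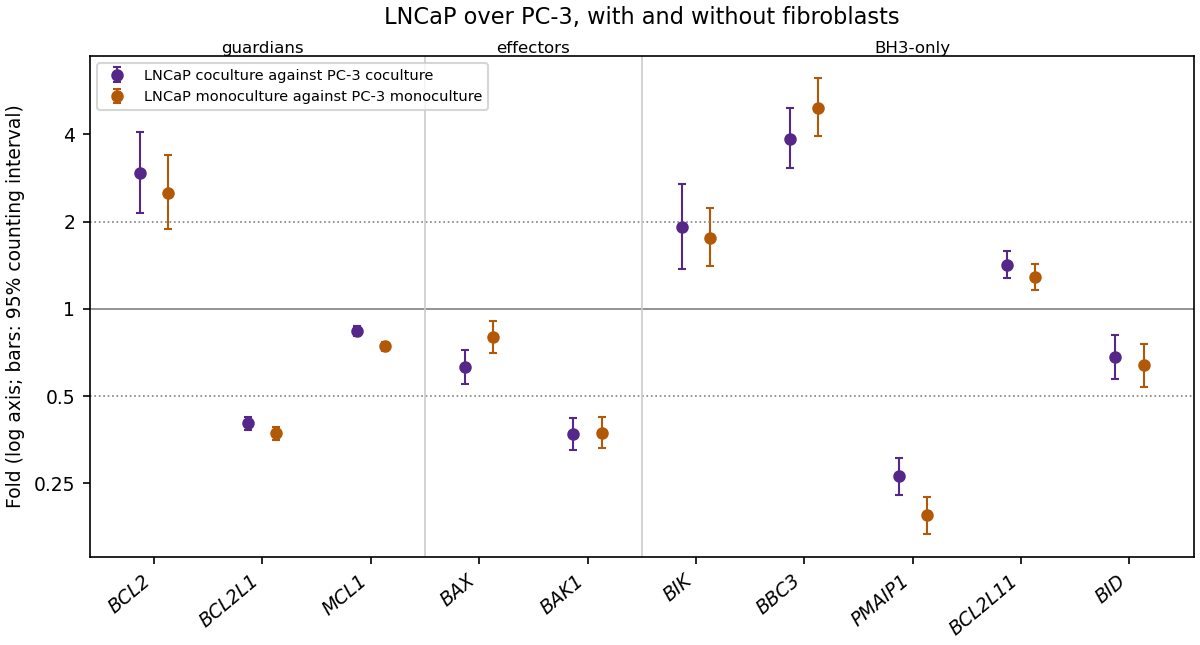
Fold of each member in LNCaP over PC-3 on a log axis, in coculture and in monoculture, with 95% counting intervals and dotted lines at 2-fold. BBC3 and BCL2 lie above 2-fold, and BCL2L1, BAK1 and PMAIP1 below 0.5-fold, in both pairs.

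Ratios between members, which scaling does not affect, use the same counts again. BAX over BCL2 and MCL1 over BCL2L1 divided the lines. There were 2.22 BAX counts per BCL2 count in LNCaP coculture (1.84 to 2.70) and 2.65 in LNCaP monoculture (2.21 to 3.18), against 10.4 in PC-3 coculture (7.85 to 14.0) and 8.31 in PC-3 monoculture (6.44 to 10.9). MCL1 counts were 2.61 times BCL2L1 counts in LNCaP coculture and 2.37 times in LNCaP monoculture, against 1.25 times in PC-3 coculture and 1.19 times in PC-3 monoculture. Effector counts per guardian count were 0.0943 in LNCaP coculture (0.0871 to 0.102), against 0.120 in LNCaP monoculture (0.111 to 0.129). In PC-3 the ratio was 0.132 in coculture (0.125 to 0.140) and 0.132 in monoculture (0.125 to 0.139). In monoculture the LNCaP and PC-3 intervals of this ratio overlapped, and in coculture they did not. Between LNCaP coculture and LNCaP monoculture the intervals did not overlap. BAX, whose fold there turned with the length correction, is part of that ratio. So is MCL1, whose log2 fold there was 0.08 with that correction, against 0.18 without it. As counts are not divided by length here, a ratio is to be read between libraries and not as copies of one transcript per another.

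**Figure D4:**
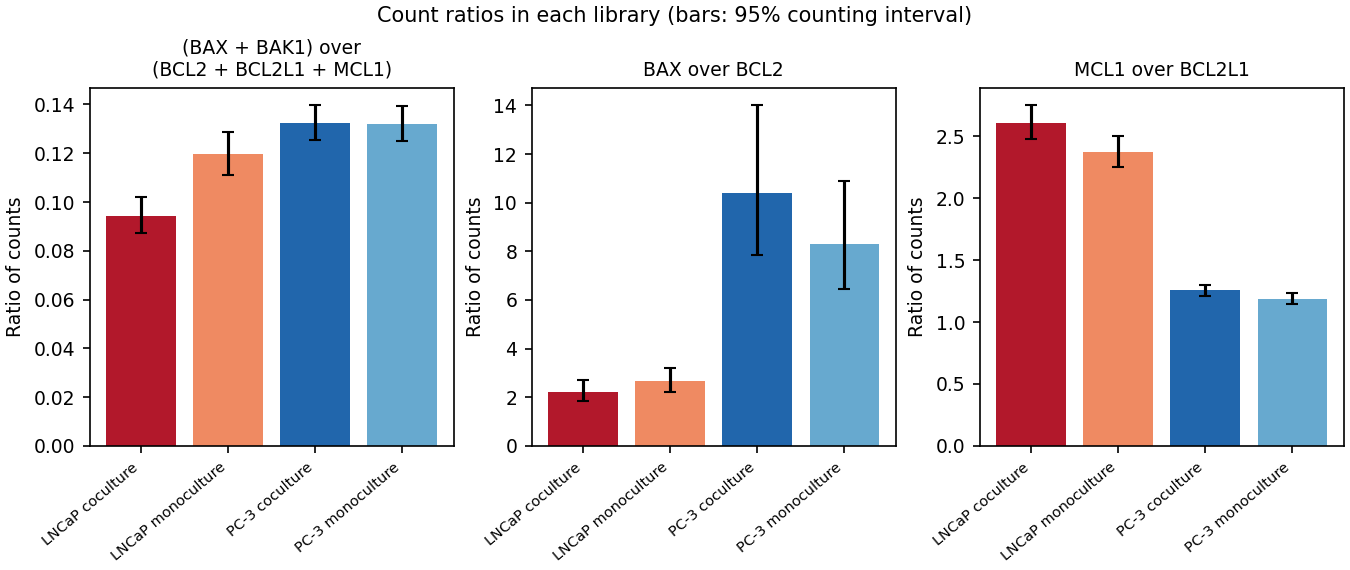
Count ratios in each library with 95% counting intervals, for effectors over guardians, BAX over BCL2, and MCL1 over BCL2L1. BAX over BCL2 is 2.22 and 2.65 in the LNCaP libraries and 10.4 and 8.31 in the PC-3 libraries.

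The genes around the family were described with 8 lists of 66 genes, of which 63 were in the table. Calls at 2-fold were made on the log2 fold with its prior count. By it 0 of 60 measured genes were past 2-fold in PC-3 coculture over monoculture, beside 3.23% of all genes. In LNCaP coculture over monoculture 0 of 58 were, beside 7.59% of all genes. As a plain ratio of scaled counts, TNFRSF10C, a decoy receptor for the death ligand TNFSF10, was 2.03-fold lower in PC-3 coculture (1.06 to 4.04), with 15 counts, against 31 in PC-3 monoculture. It was singled out after its values were seen, as the 1 list gene on which both measures differed. BMF, another BH3-only gene, was 1.69-fold lower in LNCaP coculture, with 248 counts, against 427 in LNCaP monoculture, and had 424 counts in PC-3 coculture, against 436 in PC-3 monoculture. BAD, a BH3-only gene that binds BCL-XL, had 958 counts in PC-3 coculture, against 1278 in PC-3 monoculture, and 825 in LNCaP coculture, against 841 in LNCaP monoculture.

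Between the lines in monoculture, 12 of 60 measured genes were at least 2-fold higher in LNCaP and 8 lower, and in coculture 13 were higher and 9 lower. Over all genes, 22.1% were higher and 23.6% lower in monoculture, and 20.7% higher and 23.6% lower in coculture, or 45.7% and 44.3% in either direction, so the 20 and 22 list genes past 2-fold were a smaller share than in the table as a whole. CDKN1A, a cell cycle inhibitor, had 5099 counts in LNCaP coculture and 4495 in LNCaP monoculture, against 621 in PC-3 coculture and 567 in PC-3 monoculture, 8.01-fold higher in LNCaP monoculture (7.34 to 8.76). MDM2, a ubiquitin ligase, was 2.24-fold higher there (2.10 to 2.39). Of the transcription factors that can act on BH3-only genes, TP73 was 9.65-fold and FOXO3 2.22-fold higher in LNCaP monoculture. Among the BH3-only members themselves, BBC3 was higher in LNCaP and PMAIP1 lower, so they did not share a direction.

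BOK, an effector-like relative of BAX, was 2.12-fold lower in LNCaP monoculture than in PC-3 monoculture and 2.37-fold lower in LNCaP coculture than in PC-3 coculture. BCL2L2, the guardian BCL-W, was 1.75-fold lower in monoculture and 2.01-fold lower in coculture, and reads shared with the read-through gene BCL2L2-PABPN1 make its counts uncertain. BNIP3 and BNIP3L, mitophagy receptors with BH3-like stretches, were 3.56-fold and 2.34-fold higher in LNCaP monoculture, and BCL2L12 was 2.18-fold lower. MOAP1, which binds BAX, was 2.05-fold higher and VDAC2, an outer membrane channel, 2.49-fold lower. Upstream of BID, the death receptor FAS was 4.02-fold higher in LNCaP monoculture, the initiator caspases CASP8 and CASP10 were 2.63-fold and 4.20-fold lower, and the death ligand TNFSF10 was 6.24-fold lower. TNFRSF10D, a decoy receptor for that ligand, had 1974 counts in LNCaP monoculture and 0 in PC-3 monoculture, at least 665-fold higher against a floor of 3 counts. In coculture ENDOG, a mitochondrial nuclease, was also 2.34-fold higher in LNCaP and TNFRSF10C 7.54-fold higher.

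**Figure D5:**
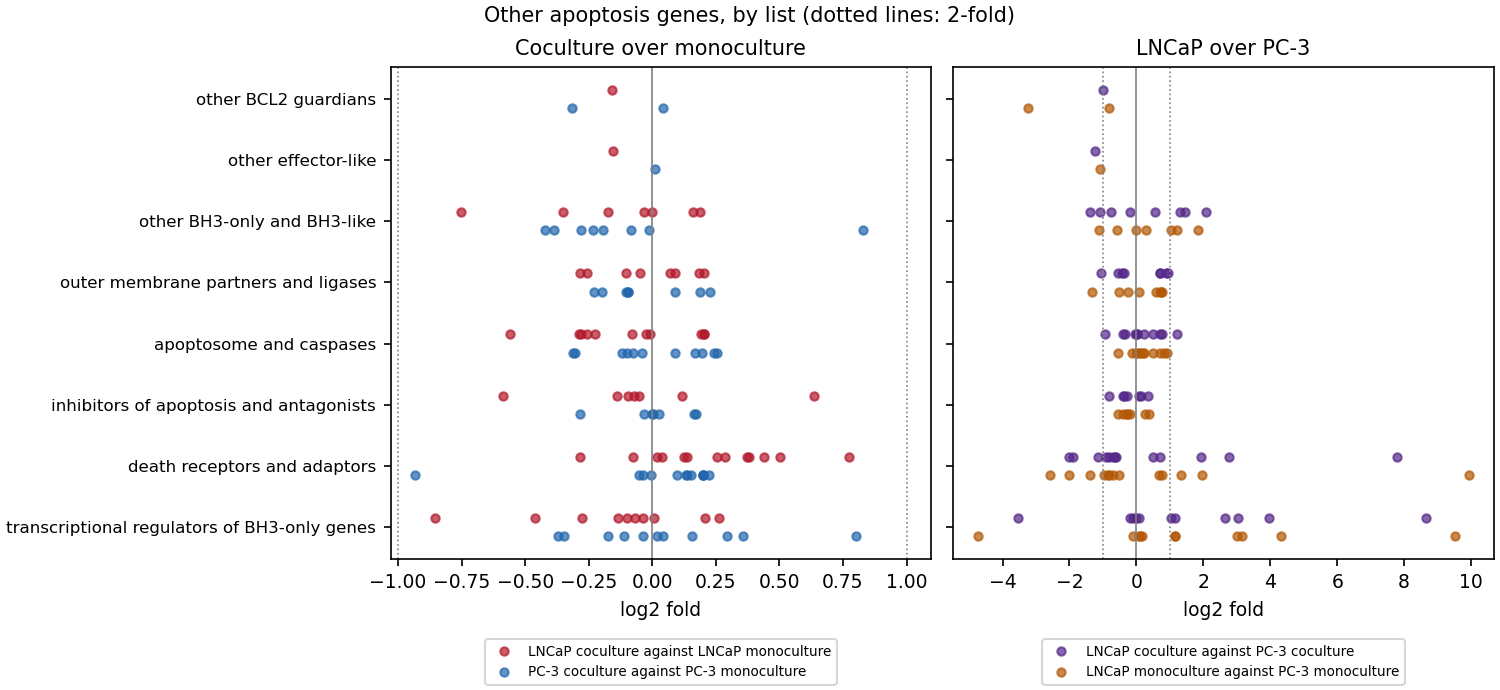
Log2 fold of each measured gene of the 8 lists, 1 point per gene, for coculture over monoculture on the left and LNCaP over PC-3 on the right, with dotted lines at 2-fold. No point passes 2-fold on the left, where 3.23% of all genes did in PC-3 and 7.59% in LNCaP. The lines differ by more than 2-fold in 20 genes in monoculture and 22 in coculture, where 45.7% and 44.3% of all genes did.

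The genes whose pattern over the 4 libraries was most like that of BIK were chosen by the smallest root mean square difference of centred log2 CPM, among 13007 genes with at least 5 CPM in their highest library. They were EDN2 at 0.106, ZSCAN16-AS1 and ITGAE at 0.140 each, and NDUFC1 and SETD9 at 0.146 each. EDN2, which encodes endothelin 2, had 50 counts in LNCaP coculture, 83 in LNCaP monoculture, 26 in PC-3 coculture and 53 in PC-3 monoculture. NDUFC1, a subunit of respiratory complex I, had 568 counts in LNCaP coculture, 1008 in LNCaP monoculture, 292 in PC-3 coculture and 492 in PC-3 monoculture. Both were lower in each coculture and lower in PC-3 than in LNCaP, which is what the choice asked for.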

How the data were processed

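The authors deposited estimated counts per gene symbol, 1 column per group, and all sample columns were used. TruSeq RNA v2 libraries were made, per the labels' protocols. Per the submitters' processing notes the tools were FastQC, Partek and STAR and the build hg38, with versions and settings not given in the sources used here. Of the values, 33.5 to 33.9% were not whole within 1e-06, and all were rounded. Counts were scaled to CPM with TMM factors (edgeR 4.0.16, R 4.3.3), with a prior count of 2 in log2 folds. A gene was tested at 1 CPM in 1 of the 2 libraries. Exact intervals are conditional binomial for folds, Clopper-Pearson for shares and Poisson for CPM (scipy 1.17.1). They cover counting error only, under models that take each read as independent, and reads carry no molecular identifiers to check that. Only the fold intervals were checked on simulated data, drawn as Poisson counts, for genes with at least 100 counts in the library compared against. Differences between log2 folds have delta-method intervals. Motif searches used GENCODE v29 and RefSeq GRCh38.p14, and 17147 symbols matched RefSeq. Named genes were all members, list genes at 2-fold with 100 counts, the relatives BMF, BAD, BOK and BCL2L2, and the 5 genes most like BIK; some genes that this rule names, and 1 motif searched, are not reported here. The members and lists were chosen with earlier results of these data known. Alternatives used DESeq2 1.42.0 size factors, total counts, other filters, another prior count and fold limit, and a length and GC correction.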

Additional observations from a re-analysis of the deposited data

Results flagged for a closer look

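For 3 members the coculture log2 folds went in opposite directions in the lines, with an interval of the difference that left out 0. The difference was not tested, as each group had 1 library, and the share of all genes meeting this rule was not counted. Of all genes tested, 31.9% had a larger difference in size than PMAIP1, 41.1% than BAX and 76.7% than BCL2L1. PMAIP1 stood at 1.05-fold in LNCaP coculture over monoculture (0.865 to 1.26) and 0.768-fold in PC-3 (0.703 to 0.840), a difference of log2 folds of 0.44 (0.15 to 0.74), LNCaP minus PC-3. BAX stood at 0.804-fold in LNCaP (0.697 to 0.927) and 1.03-fold in PC-3 (0.911 to 1.16), a difference of -0.35 (-0.61 to -0.09). With the length and GC correction the BAX log2 folds were 0.06 in LNCaP and 0.23 in PC-3, no longer opposite in direction. BCL2L1 stood at 1.03-fold in LNCaP (0.967 to 1.10) and 0.949-fold in PC-3 (0.913 to 0.987), a difference of 0.12 (0.01 to 0.22). In each pair 1 of the 2 folds had an interval that held 1.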

How the results depend on the processing

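Of 190 recomputed log2 values of single members, 183 stayed within their counting interval, 7 moved outside it and no value past 2-fold changed sign. BAX in LNCaP coculture over monoculture, whose interval left out 1, turned to 0.06 with the length and GC correction, against -0.31 without it. MCL1 there, whose interval also left out 1, moved to 0.08, against 0.18 without it. With the length and GC correction, 0 members passed 2-fold in PC-3 coculture over monoculture, in either direction or lower, against 1 without it; the correction itself moved BIK to -0.89. At a 1.5-fold limit, 1 member, BIK, was called lower in LNCaP coculture over monoculture, against 0 at 2-fold. With BOK added to the effectors and BCL2L2 and BCL2A1 to the guardians, the effector to guardian ratio was 0.158 in LNCaP coculture, 0.192 in LNCaP monoculture, 0.225 in PC-3 coculture and 0.223 in PC-3 monoculture. The monoculture intervals of this wider ratio no longer overlapped, at 0.182 to 0.203 in LNCaP and 0.214 to 0.232 in PC-3. Counts over all genes moved with the filter and the limit: in PC-3 coculture over monoculture, 320 genes were higher, against 906 with no filter, 87 at 5 CPM and 670 at 1.5-fold, and 146 lower, against 440, 21 and 557. In LNCaP coculture over monoculture, 644 were higher, against 1286, 240 and 1113, and 428 lower, against 753, 154 and 1263, or 266 with the length and GC correction. In LNCaP over PC-3 coculture, 3130 were higher, against 4703 at 1.5-fold. No paired analysis was possible because each group had 1 library, and for the same reason no replicate could be left out. Depth limits BCL2 and BIK most, with 54 and 56 counts in PC-3 coculture.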

Other observations

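Of 13 measured death receptor and adaptor genes, 11 had a log2 fold above 0 in LNCaP coculture over monoculture, beside 50.1% of all genes. Their median was 0.25, beside 0.00 over all genes, and 0 were past 2-fold, beside 7.59% of all genes. In PC-3 coculture over monoculture 8 of 12 were above 0, beside 50.8% of all genes, with a median of 0.13. The list was 1 of 8, chosen with earlier results of these data known, and in LNCaP it had the highest median of the 8. Over all 8 lists together, 25 of 58 measured genes were above 0 in LNCaP coculture over monoculture, with a median of -0.03. TNFRSF10D had 2629 counts in LNCaP coculture, against 1974 in LNCaP monoculture, and CASP8 had 273 counts, against 214. CFLAR had 912 counts in LNCaP coculture, against 1132 in LNCaP monoculture, and FAS had 133, against 143, both lower. BIRC5, which encodes the inhibitor of apoptosis survivin, had 813 counts in LNCaP coculture, against 1244 in LNCaP monoculture, and 1441 counts in each of PC-3 coculture and PC-3 monoculture.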
